A study of Mus musculus with 29 samples.

Results

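RNA level was set against histone H3 lysine 9 acetylation (H3K9ac) at gene ends in 21152 protein-coding genes of the embryonic mouse cortex. They are the RefSeq protein-coding genes (21900 in the annotation, assembly GRCm38.p6, the same assembly as mm10) that could be matched to an identifier in the count tables, which hold 48709 identifiers. For each gene a window of 1 kb was laid to either side of both ends of the RefSeq gene, and the gene was classed by whether an H3K9ac peak overlapped a window in every, in some or in no library of a population. The widths of those peaks were added up per library. RNA level is the mean of CPM (counts relative to the library total, scaled by TMM factors) over the RNA libraries of the same population. A gene is called expressed from a mean of 1 CPM and without RNA under 0.1 CPM. CPM is not divided by transcript length, so a difference in CPM between genes also carries their lengths.

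Cortex was taken at E16.5 after vehicle, and cells or nuclei were separated by Tbr2, the protein of the gene Eomes. The Tbr2-positive vehicle group had 3 RNA and 3 H3K9ac libraries and the Tbr2-negative vehicle group had 3 RNA and 4 H3K9ac libraries, 13 of the 29 samples of the series. RNA libraries treated with the deacetylase inhibitor TSA entered the TMM factors, and so the scale of CPM. They also entered the low-count filter and the estimate of spread in the RNA test, and are not otherwise used. The study's design text speaks of sorted nuclei for both assays, while the extraction protocol names TRIZOL on whole tissue for RNA and sorted fixed nuclei or whole tissue for chromatin. The labels give no strain, dose or number of embryos behind a library, so p-values measure the spread between these libraries, which may be technical. Vehicle RNA libraries held 18567111 to 24106766 counts, and the H3K9ac libraries held 56403 to 82164 peaks from 25801692 to 29490943 filtered reads.

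The labels were checked on Eomes, which marks intermediate (basal) progenitors. Eomes (chr9:118478186-118486132) had 409.6, 370.4 and 548 CPM in Tbr2-positive cells, against 22.0, 13.9 and 18.2 CPM in Tbr2-negative cells. Its gene-end peaks summed to 7766, 8194 and 7220 bases in Tbr2-positive libraries, against 1346, 1364, 1830 and 615 bases in Tbr2-negative libraries. The groups did not overlap in either assay, and the RNA difference was 4.62 ± 0.26 on the log2 scale (SE, edgeR quasi-likelihood test, Benjamini-Hochberg adjusted p = 1.05e-06).

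H3K9ac is laid down on nucleosomes beside active start sites by acetyltransferases such as those of the GCN5/PCAF family and is removed by histone deacetylases. It is read as a mark of active promoters and flanks the nucleosome-depleted start on both sides. Most mammalian promoters of widely used genes lie in CpG islands, where CG dinucleotides have been spared from loss, whereas tissue-restricted genes often have CpG-poor promoters, some with a TATA box. In developing cortex, intermediate progenitors divide in the subventricular zone and give rise to excitatory neurons, while the Tbr2-negative fraction mixes radial glia, neurons, interneurons and non-neural cells.

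Promoter sequences of 7 genes show the kinds of start that the comparison met. Each runs from 250 bases before to 50 bases after a RefSeq start (GRCm38.p6, RefSeq promoter table), on the gene's strand, and capitals mark CG dinucleotides. Trim2 and Phip had the highest CPM among genes without a gene-end peak in Tbr2-positive cells. Mef2c, the second of that set in Tbr2-negative cells, was added after its values were seen because its start is poor in CG. The starts lie at chr3:84304726-84305025 (minus strand), chr9:82975440-82975739 (minus strand) and chr13:83503784-83504083 (plus strand).
Trim2: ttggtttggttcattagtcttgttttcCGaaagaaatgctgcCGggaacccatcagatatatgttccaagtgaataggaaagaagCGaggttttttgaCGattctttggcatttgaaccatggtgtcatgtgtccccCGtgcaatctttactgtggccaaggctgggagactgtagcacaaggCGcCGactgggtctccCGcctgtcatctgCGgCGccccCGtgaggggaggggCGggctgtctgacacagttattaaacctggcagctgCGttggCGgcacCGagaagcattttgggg
Phip: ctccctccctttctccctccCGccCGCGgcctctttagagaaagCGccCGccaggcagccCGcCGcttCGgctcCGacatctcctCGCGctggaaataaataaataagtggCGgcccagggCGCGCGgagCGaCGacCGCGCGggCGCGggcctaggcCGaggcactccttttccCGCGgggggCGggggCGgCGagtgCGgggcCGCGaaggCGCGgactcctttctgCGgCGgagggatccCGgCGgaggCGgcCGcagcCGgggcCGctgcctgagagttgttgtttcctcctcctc
Mef2c: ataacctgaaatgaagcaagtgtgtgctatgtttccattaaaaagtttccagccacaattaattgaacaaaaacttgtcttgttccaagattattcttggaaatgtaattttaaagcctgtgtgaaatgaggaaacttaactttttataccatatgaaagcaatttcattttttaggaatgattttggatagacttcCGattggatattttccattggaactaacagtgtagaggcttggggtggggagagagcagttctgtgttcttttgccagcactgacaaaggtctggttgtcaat
The Trim2 and Phip starts hold 15 and 41 CG dinucleotides, and a peak lay within 1 kb of each of these starts in 3 of 3 Tbr2-positive and 4 of 4 Tbr2-negative libraries. They lie 3577 and 6179 bases inward from the 5′ end of the RefSeq gene, outside the gene-end window. The Mef2c start, 17 bases from the gene's end, holds 1 CG dinucleotide and had no peak within 1 kb in any of the 7 libraries.

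Prickle4 and H2ac21 had the widest gene-end peaks among genes without RNA in Tbr2-positive cells that have an entry in the table. They lie at chr17:47694687-47694986 (minus strand) and chr3:96219635-96219934 (plus strand).
Prickle4: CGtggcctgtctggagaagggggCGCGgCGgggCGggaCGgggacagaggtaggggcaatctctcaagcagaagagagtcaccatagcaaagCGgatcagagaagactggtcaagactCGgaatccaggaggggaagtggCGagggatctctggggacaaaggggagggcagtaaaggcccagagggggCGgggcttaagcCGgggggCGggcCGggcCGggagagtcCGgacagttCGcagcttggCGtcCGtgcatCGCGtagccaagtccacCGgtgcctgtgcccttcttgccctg
H2ac21: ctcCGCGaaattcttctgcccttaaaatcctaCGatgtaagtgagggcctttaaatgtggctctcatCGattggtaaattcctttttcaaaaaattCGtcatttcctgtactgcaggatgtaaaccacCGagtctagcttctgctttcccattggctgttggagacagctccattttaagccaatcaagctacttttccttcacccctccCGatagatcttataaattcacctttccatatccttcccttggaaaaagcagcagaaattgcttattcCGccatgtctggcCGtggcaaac
The Prickle4 start holds 21 CG dinucleotides, and the H2ac21 start holds 9 and the letters TATAAA within the 50 bases before the start. Among all 32851 promoters in the table, 2.63% hold TATAAA there on the gene's strand, the only strand searched.

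Pou3f3 and Meis2 were the first genes in order of gene-end width in Tbr2-positive cells that have an entry, at chr1:42695518-42695817 (plus strand) and chr2:116064570-116064869 (minus strand).
Pou3f3: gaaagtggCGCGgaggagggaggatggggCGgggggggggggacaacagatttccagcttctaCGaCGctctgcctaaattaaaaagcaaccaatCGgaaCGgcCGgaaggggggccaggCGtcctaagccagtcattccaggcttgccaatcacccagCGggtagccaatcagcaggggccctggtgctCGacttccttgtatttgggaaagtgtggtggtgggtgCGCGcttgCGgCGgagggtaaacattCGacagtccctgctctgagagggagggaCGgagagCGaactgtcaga
Meis2: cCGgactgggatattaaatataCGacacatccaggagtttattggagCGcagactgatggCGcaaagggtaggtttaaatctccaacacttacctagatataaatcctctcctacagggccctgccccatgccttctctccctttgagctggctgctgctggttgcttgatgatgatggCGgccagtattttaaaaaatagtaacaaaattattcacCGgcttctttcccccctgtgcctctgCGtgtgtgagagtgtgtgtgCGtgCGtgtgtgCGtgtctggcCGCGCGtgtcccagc
They hold 18 and 13 CG dinucleotides, with a peak within 1 kb of the printed start in all 7 libraries.

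Genes with gene-end acetylation were mostly expressed, and genes without it were mostly silent. In Tbr2-positive cells 12927 genes (61.1%) had a gene-end peak in every library, 1710 in some and 6515 in none. In Tbr2-negative cells these were 13090 (61.9%), 1782 and 6280 genes. Of the genes with a peak in every library, 87.0% were expressed in Tbr2-positive and 87.9% in Tbr2-negative cells. The shares were 31.0% and 35.6% for peaks in some libraries, and 13.3% and 13% for no peak. The median CPM was 29.9 in Tbr2-positive and 28.9 in Tbr2-negative cells with a peak in every library, 0.206 and 0.334 CPM with a peak in some, and 0 CPM in both without a peak. Single RNA libraries gave medians of 29.3, 29.6 and 30.0 CPM for acetylated genes of Tbr2-positive cells and of 29.0, 28.5 and 28.9 CPM for those of Tbr2-negative cells.

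Read the other way, the share of genes with a peak in every library was larger at higher RNA levels. In Tbr2-positive cells it was 6.78% of the 5249 genes with no count, 28.2% up to 0.1 CPM, 46.5% up to 1 CPM, 75.1% up to 10 CPM, 93.0% up to 100 CPM and 94.1% from 100 CPM. In Tbr2-negative cells the same steps were 7.16%, 27.2%, 43.7%, 75.5%, 92.8% and 94.3%. The step from 10 CPM upward added little, and 4.16% of Tbr2-positive and 3.49% of Tbr2-negative genes at 100 CPM or more had no gene-end peak in any library. Nothing changed abruptly at the thresholds. From 0.8 to 1 CPM 55.8% of 215 Tbr2-positive and 54.4% of 261 Tbr2-negative genes had a peak in every library, and from 1 to 1.25 CPM 62.9% of 240 and 56.1% of 246 did. Just under and just over 0.1 CPM (0.08 to 0.1 and 0.1 to 0.125 CPM) the shares were 30.6% and 30.7% in Tbr2-positive cells and 33.6% and 28.0% in Tbr2-negative cells.

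**Figure D1:**
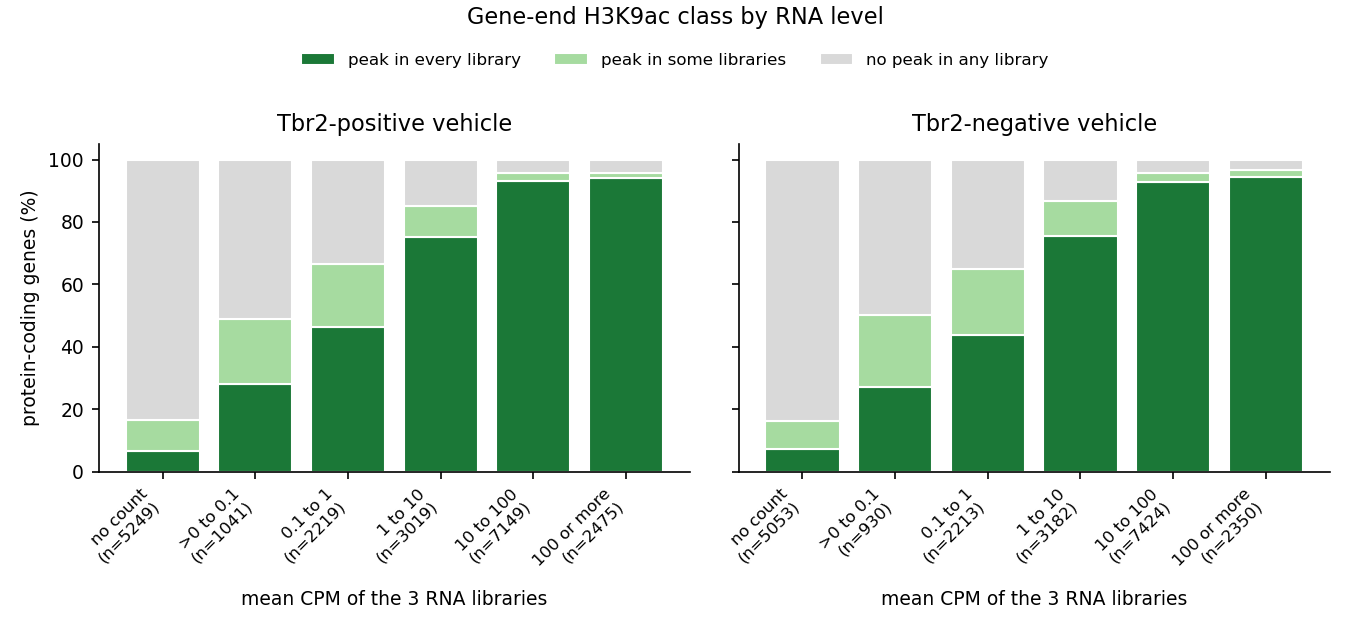
Stacked bars give the percentage of protein-coding genes with a gene-end H3K9ac peak in every library (dark green), in some libraries (light green) or in none (grey) for 6 bins of mean CPM over 3 RNA libraries, with the number of genes under each bar. The dark part grows from 6.78% to 94.1% in Tbr2-positive cells (left) and from 7.16% to 94.3% in Tbr2-negative cells (right), with little gain above 10 CPM.

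Over all expressed genes, 88.95% in Tbr2-positive and 88.82% in Tbr2-negative cells had a gene-end peak in every library. Taken library by library, 91.4%, 90.6% and 90.9% of expressed genes had a peak in Tbr2-positive libraries, against 90.8%, 91.6%, 91.4% and 90.6% in Tbr2-negative libraries. The values overlapped, with means of 91.0 ± 0.388% (SD, n = 3) and 91.1 ± 0.479% (SD, n = 4) and a difference of -0.115 percentage points (two-sided exact permutation test, p = 0.857). With 3 against 4 libraries this test cannot go below 0.0571. The difference changed sign without Tbr2-positive H3K9ac replicate 2 (0.0524) and without Tbr2-negative H3K9ac replicate 2 (0.0599). Of all genes with a peak in a library, 83.8 ± 0.785% were expressed in Tbr2-positive and 85.0 ± 0.587% in Tbr2-negative libraries (exact permutation test, p = 0.114, adjusted p = 0.286 over 5 measures).

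All 17 basal progenitor genes had a peak in every library and RNA in Tbr2-positive cells, against 13 of 17 with both in Tbr2-negative cells. For this and the following lists of mostly expressed genes, the background is the share over all expressed genes, 88.95% and 88.82%. Neurog2, a proneural factor that drives excitatory neurogenesis, had 370.4, 335 and 421 CPM with 4910, 5059 and 5256 bases of peak in Tbr2-positive cells, against 31.4, 16.9 and 27.5 CPM with 2529, 2499, 2632 and 2764 bases in Tbr2-negative cells. Neurog2 RNA was lower in every Tbr2-negative library by more than its spread, and the gene still carried a peak in each (log2 difference 3.89, edgeR adjusted p = 1.83e-06). Pax6, a radial glial regulator, had 165 ± 21.2 CPM in Tbr2-positive and 49.9 ± 18.2 CPM in Tbr2-negative cells (SD, n = 3 each), and its summed width averaged 4860.3 bases in Tbr2-positive and 1296.5 bases in Tbr2-negative libraries. Sox2, which maintains neural stem cells, had only 28.5 ± 4.62 CPM in Tbr2-positive and 26.9 ± 3.77 CPM in Tbr2-negative cells under peaks of 6040 and 7030 bases on average, so a wide peak did not go with a high count there.

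Radial glia genes (24) had a peak in every library and RNA for 23 members in each population, with a median of 53.3 CPM in Tbr2-positive and 34.5 CPM in Tbr2-negative cells. All 20 DNA replication and all 20 mitosis genes did so in both. Their medians were 66.3 and 41.6 CPM in Tbr2-positive cells and 32.7 and 15.2 CPM in Tbr2-negative cells. Pcna, the sliding clamp of DNA polymerase, had 161 ± 42 CPM in Tbr2-positive and 98.1 ± 9.94 CPM in Tbr2-negative cells (SD, n = 3 each). The 10 histone acetyltransferase genes were acetylated and expressed in both, including Crebbp at 235 ± 29.3 CPM in Tbr2-positive and 256 ± 35.4 CPM in Tbr2-negative cells. Among the 11 histone deacetylase genes 8 were so in both. Hdac9 had 97.2 CPM with a peak of 135 bases in 1 of 3 Tbr2-positive libraries, against 19.8 CPM and no peak in Tbr2-negative libraries, and its RNA was higher in Tbr2-positive cells (log2 difference 2.30 ± 0.19, SE, edgeR adjusted p = 8.41e-06).

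Interneuron genes, which mark cells that enter the cortex from the ganglionic eminences, mostly had less RNA and narrower peaks in Tbr2-positive than in Tbr2-negative cells. Of 17 tested by edgeR, 15 were lower in Tbr2-positive cells, 1 was higher and 1 did not pass, with a median log2 difference of -2.26, against 9.96% higher, 11.5% lower and a median of -0.05 over all 20078 genes tested. The mean width was smaller in Tbr2-positive cells for 16 of 17. How many of all genes were narrower there was not counted. Over all genes with a peak in every library the median width was 1346.3 bases in Tbr2-positive and 1426.8 bases in Tbr2-negative cells. Of the 17, 11 were acetylated in every library and expressed in Tbr2-positive cells, against 15 in Tbr2-negative cells. The list's median was 15.9 CPM under 700.3 bases in Tbr2-positive and 72.4 CPM under 3316.8 bases in Tbr2-negative cells. Gad2, which makes GABA, had 28.0, 35.3 and 17.0 CPM with 1662, 1518 and 557 bases in Tbr2-positive cells, against 126, 136 and 100.2 CPM with 4158, 4219, 7121 and 4044 bases in Tbr2-negative cells. Dlx2, an interneuron fate factor, had 3.49, 7.78 and 3.61 CPM with 543, 859 and 699 bases in Tbr2-positive cells, against 20.3, 17.0 and 18.1 CPM with 3953, 4111, 4496 and 4352 bases in Tbr2-negative cells. Neither gene overlapped between the groups in RNA or in width. In such mixed samples fewer cells of a type and less RNA or acetylation per cell cannot be told apart. The exception in RNA was Calb2, which encodes calretinin and also marks Cajal-Retzius cells. It had 116, 60.3 and 40.3 CPM with 206, 165 and 142 bases in Tbr2-positive cells, against 23.1, 29.9 and 28.1 CPM with 145, 444, 244 and 0 bases in Tbr2-negative cells (log2 difference 1.42, edgeR adjusted p = 0.00405). Sst, a neuropeptide gene of interneurons, had 16.0, 31.7 and 21.4 CPM with no gene-end peak in Tbr2-positive cells, against 105, 125 and 126 CPM with 158, 343, 174 and 0 bases in Tbr2-negative cells.

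Of 12 deep-layer neuron genes, all expressed, 11 had a peak in every library in each population. This is near the share over all expressed genes, 88.95% and 88.82%. The list's median was 81.6 CPM in Tbr2-positive and 125 CPM in Tbr2-negative cells. Bcl11b, a factor of subcortical projection neurons, had 75.3 ± 18.6 CPM under 2053.3 bases in Tbr2-positive and 206 ± 44.0 CPM under 5987.2 bases in Tbr2-negative cells. Tbr1, of early layer neurons, had 160.4 ± 35.8 CPM in Tbr2-positive and 157 ± 14.5 CPM in Tbr2-negative cells, with widths of 5489, 1836 and 5433 bases in Tbr2-positive and of 4610, 7972, 9815 and 11878 bases in Tbr2-negative libraries, which overlap. Its RNA difference was 0.03 on the log2 scale (edgeR adjusted p = 0.943).

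Among acetylated genes, RNA level was higher where the summed gene-end peak width was larger. Ordered by width and cut into 5 equal groups, the median CPM in Tbr2-positive cells was 1.81, 22.3, 36.8, 48.9 and 59.3, and in Tbr2-negative cells 2.81, 21.1, 35, 45.9 and 55.5. As a ratio, the largest step lay between the narrowest group and the next. The narrowest group reached 845 bases in Tbr2-positive and 943 bases in Tbr2-negative cells, and 58.3% and 64.2% of its genes were expressed, against 97.1% and 96.7% in the widest group. Across genes the rank correlation was 0.483 over 12927 Tbr2-positive and 0.448 over 13090 Tbr2-negative genes, and 0.367 and 0.347 over the expressed ones. These genes share libraries and are not replicates, so no p is given. The genomic length of the gene, the length at hand, correlated with CPM at 0.0678 in Tbr2-positive and 0.104 in Tbr2-negative cells. In single libraries the rank correlation was 0.534, 0.509 and 0.523 in Tbr2-positive and 0.481, 0.497, 0.487 and 0.479 in Tbr2-negative libraries, which did not overlap. The means of 0.522 ± 0.0122 (SD, n = 3) and 0.486 ± 0.00810 (SD, n = 4) differed by 0.0362 (exact permutation test, p = 0.0571, the smallest it can give, adjusted p = 0.286 over 5 measures). Peak number and width also differ among these libraries, with 82164 peaks of median width 218 bases in Tbr2-positive replicate 1 and 56403 of median width 291 bases in Tbr2-negative replicate 4. Their part in the difference was not tested.

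**Figure D2:**
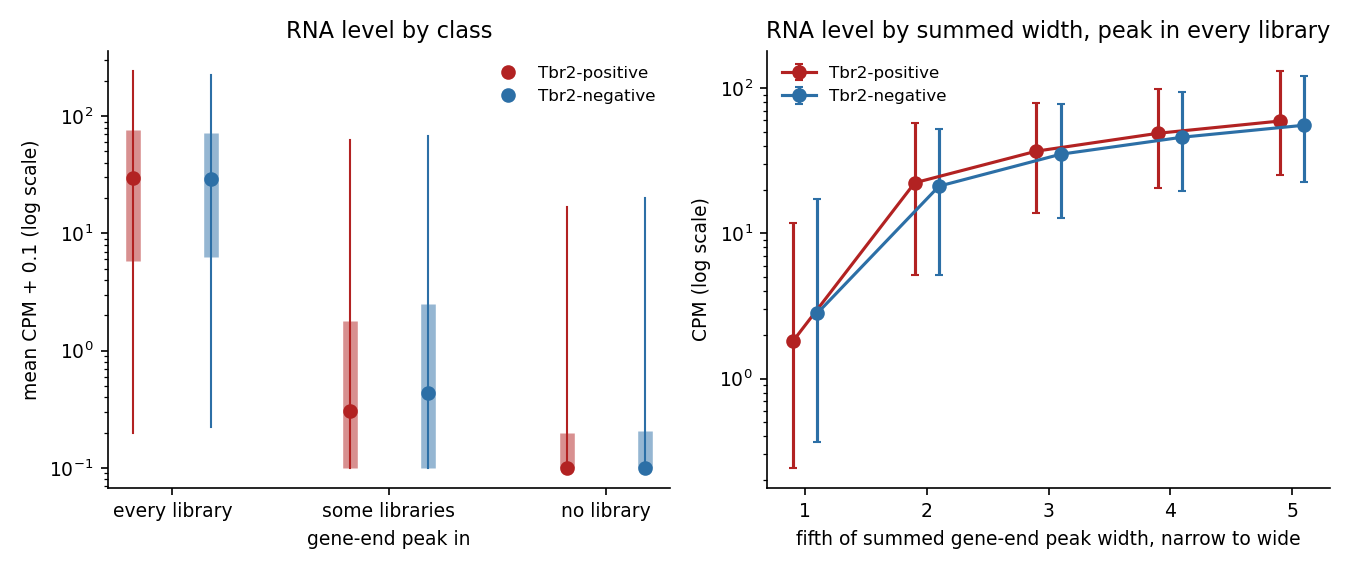
Left, mean CPM + 0.1 on a log scale for genes with a gene-end peak in every, some or no library, with the median (point), the quartiles (thick bar) and the 5th and 95th percentile (line) over genes. Right, median CPM with quartiles by group of summed width (5 equal groups) among genes with a peak in every library, where the median grows from 1.81 to 59.3 CPM in Tbr2-positive (red) and from 2.81 to 55.5 CPM in Tbr2-negative cells (blue).

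Pou3f3, a POU factor of progenitors and upper-layer neurons (chr1:42695768-42700210), carried 32061, 30668 and 32719 bases in Tbr2-positive libraries, against 21152, 19291, 9885 and 9171 bases in Tbr2-negative libraries. Its RNA was 173, 279.5 and 291 CPM in Tbr2-positive cells, against 161, 171 and 141 CPM in Tbr2-negative cells (log2 difference 0.65, edgeR adjusted p = 0.0295).

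Otx1 and Emx2, homeobox genes of the dorsal forebrain, stood among the widest in Tbr2-positive cells at modest RNA. Otx1 had 49.1, 29.0 and 45.6 CPM under 9244, 15197 and 12372 bases in Tbr2-positive cells, against 12.8, 11.8 and 9.02 CPM under 4095, 4582, 5611 and 4933 bases in Tbr2-negative cells. Emx2 had 33.0, 29.6 and 53.2 CPM under 10662, 10663 and 10608 bases in Tbr2-positive cells, against 6.21, 10.5 and 9.44 CPM under 3708, 3682, 4148 and 4206 bases in Tbr2-negative cells. Both were separate between the groups in RNA and in width. Nr2f1, an areal patterning receptor, had nearly the same width in both populations, 12713.3 bases at 165 ± 13 CPM in Tbr2-positive and 12684.5 bases at 125 ± 3.92 CPM in Tbr2-negative cells (log2 difference 0.41, adjusted p = 0.0418). Mn1, Meis2, Pou3f2, Zbtb18 and Nfib also stood in the Tbr2-positive set, while Bcl11a, Sox11 and Fezf2 entered only the Tbr2-negative one by this ranking.

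The highest RNA levels stood over peaks of ordinary to large mean width, but the width of Tcf4 varied widely between libraries. Tcf4, the third by CPM in Tbr2-positive cells, had 3678 ± 436 CPM there and 1821 ± 164 CPM in Tbr2-negative cells. Its widths were 462, 2422 and 9183 bases in Tbr2-positive and 523, 8559, 385 and 8548 bases in Tbr2-negative libraries. Tuba1a, the neuronal alpha-tubulin, had 8352 ± 1042 CPM under 4702.7 bases in Tbr2-positive and 13603 ± 1426 CPM under 7925.5 bases in Tbr2-negative cells. Nfib, a factor of neuronal and glial differentiation, had 4755 ± 715 CPM under 18462.3 bases in Tbr2-positive and 2089.8 ± 321 CPM under 16642.8 bases in Tbr2-negative cells. Actb, cytoplasmic beta-actin, had 2604 ± 62.9 CPM under 1530 bases in Tbr2-positive and 2725 ± 388 CPM under 1875.8 bases in Tbr2-negative cells. Gapdh, a glycolytic enzyme, had 324 ± 57.6 CPM under 2780.3 bases in Tbr2-positive and 291 ± 21.1 CPM under 2872.5 bases in Tbr2-negative cells. Cx3cr1, a microglial receptor, had no gene-end peak in any library at 2.28 ± 0.734 CPM in Tbr2-positive and 7.42 ± 1.33 CPM in Tbr2-negative cells.

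**Figure D3:**
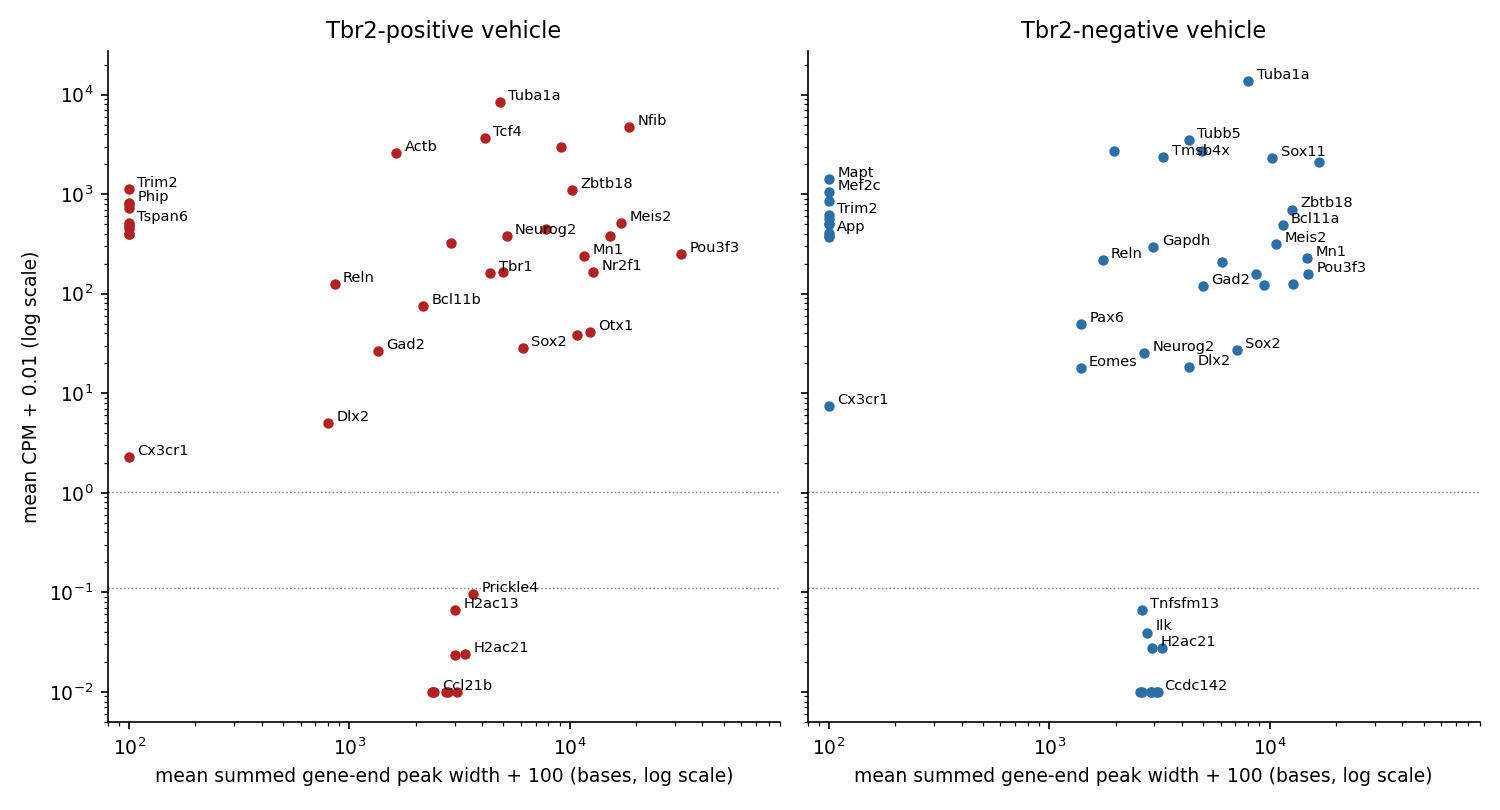
Mean CPM + 0.01 against mean summed gene-end peak width + 100 bases, both on log scales, for the genes with the highest RNA, the widest peaks, RNA without a peak or a peak without RNA, and the marker genes, in Tbr2-positive (left) and Tbr2-negative cells (right). Points at the left edge have no gene-end peak, the dotted lines mark 1 and 0.1 CPM, and labels were left off where they would overlap.

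Expressed genes without a gene-end peak numbered 867 in Tbr2-positive and 815 in Tbr2-negative cells, with median levels of 9.22 and 9.10 CPM. The populations shared 596 of them, 68.7% of the Tbr2-positive and 73.1% of the Tbr2-negative set. The highest were Trim2, a ubiquitin ligase of neurons, with 998, 1081 and 1321 CPM in Tbr2-positive and 600.3, 666 and 579.6 CPM in Tbr2-negative cells, and Phip, a bromodomain protein, with 808 ± 22.2 CPM in Tbr2-positive and 564 ± 43.8 CPM in Tbr2-negative cells (SD, n = 3 each). The splicing factor gene Hnrnph1 had 803 ± 56.9 CPM in Tbr2-positive and 503 ± 51.5 CPM in Tbr2-negative cells. The glycolytic gene Ldha had 729 ± 46.7 CPM in Tbr2-positive and 863 ± 146 CPM in Tbr2-negative cells. Mapt, the microtubule protein tau, had 462, 610.5 and 375 CPM in Tbr2-positive cells, against 1345, 1619 and 1298 CPM in Tbr2-negative cells, where it led the set. Mef2c, a factor of maturing neurons, had 206, 343 and 142 CPM in Tbr2-positive cells, against 938, 1248 and 953 CPM in Tbr2-negative cells. The RNA of both fell in Tbr2-positive relative to Tbr2-negative cells (log2 differences -1.56 and -2.18, edgeR adjusted p = 8.52e-05 and 0.000145). None of these genes had a gene-end peak in any of the 7 libraries.

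Most of them had a peak inside the gene, though not always near its ends. A peak lay inside the gene in every library for 603 of the 867 Tbr2-positive genes (69.6%) and for 523 of the 815 Tbr2-negative genes (64.2%), against 4.24% and 2.92% of genes with neither peak nor RNA. These sets differ in gene length, with medians of 40938 bases in Tbr2-positive and 38602 bases in Tbr2-negative cells for the expressed genes, against 4856 and 4458 bases for genes with neither. A shorter gene has less sequence outside the windows at its ends, and the part of length in this contrast was not tested. The median distance from the nearer gene end to the nearest peak was 4401 bases in Tbr2-positive and 5525.5 bases in Tbr2-negative cells, against 96063 and 110431 bases for genes with neither. A peak lay within 5 kb of a gene end for 52.2% and 48.1% of the expressed genes, against 8.15% and 5.86% of genes with neither. Starts listed by RefSeq were known for 678 of 818 Tbr2-positive and 635 of 764 Tbr2-negative genes of the set on chromosomes other than 18 (82.9% and 83.1%). Of these, 409 (60.3%) and 361 (56.9%) had a peak within 1 kb of a listed start in every library. The same share was 0.489% and 0.410% among genes with neither peak nor RNA. In the whole sets of expressed genes, those without a listed start included, 47.2% and 44.3% had such a peak.

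The leading genes show this arrangement directly. In Phip, Trim2, Ldha, Tspan6 and Hnrnph1 the nearest listed start lies 6179, 3577, 3530, 2779 and 1733 bases inward from the 5′ end of the RefSeq gene. All 5 had a peak at a listed start in every library of both populations. Mef2c has 3 listed starts, and a peak lay at a listed start other than the printed one in 4 of 4 Tbr2-negative libraries. Adgrg1, an adhesion receptor of neural progenitors, had 530.5, 369 and 569.9 CPM in Tbr2-positive cells, against 157, 84.1 and 114 CPM in Tbr2-negative cells. A peak at its listed starts was called in 1 of 3 Tbr2-positive libraries, and a peak inside the gene in 3 of 3. When windows at all listed starts were added to those at gene ends, an alternative chosen after seeing the data, 442 Tbr2-positive and 433 Tbr2-negative expressed genes had no peak, and 94.1% and 93.6% of expressed genes had one in every library.

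**Figure D4:**
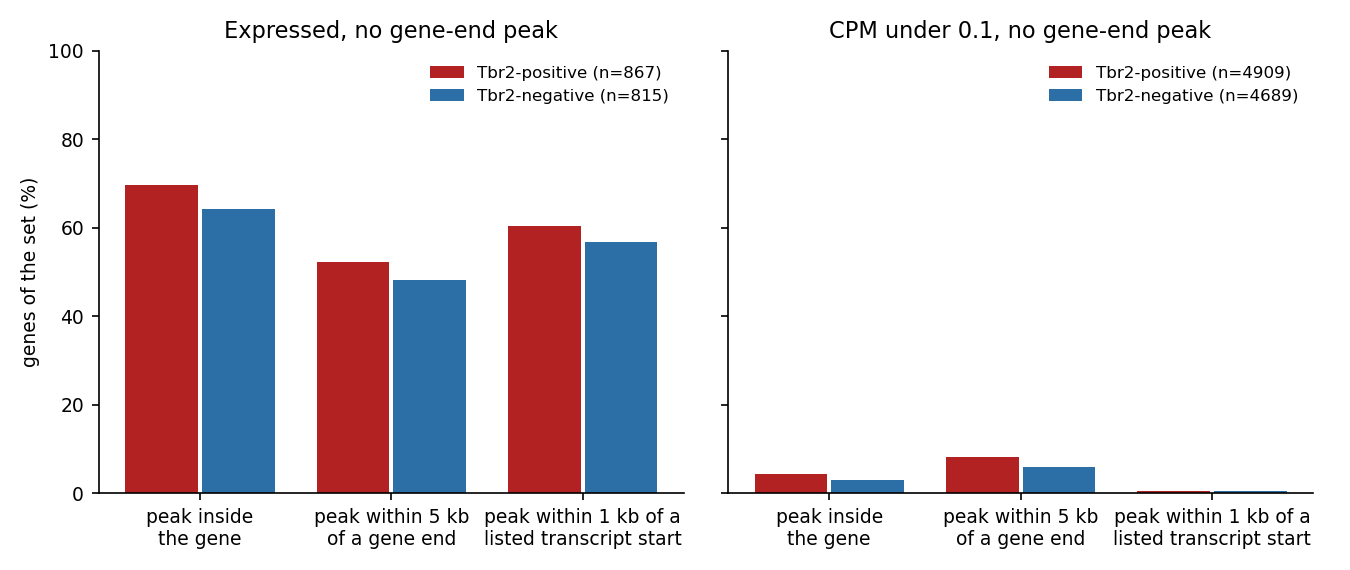
Bars give the percentage of genes with a peak, in every library, inside the gene or within 1 kb of a listed RefSeq start, or with a peak within 5 kb of a gene end (median distance over libraries), for Tbr2-positive (red) and Tbr2-negative cells (blue). Expressed genes without a gene-end peak (left) had a peak at a listed start for 60.3% and 56.9% of the genes that have such a start in the table on chromosomes other than 18, against 0.489% and 0.410% of genes without a gene-end peak and under 0.1 CPM (right).

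A different kind of gene in this set belonged to blood and immune cells. Of 12 erythroid genes 6 in Tbr2-positive and 5 in Tbr2-negative cells were expressed, and 5 and 4 of these had no gene-end peak. Over all expressed genes 6.86% and 6.29% had none. The beta-globin gene Hbb-bs had 154, 249 and 204 CPM in Tbr2-positive cells, against 264, 389.9 and 285 CPM in Tbr2-negative cells, and no gene-end peak in any library. The alpha-globin gene Hba-a1 had 105 ± 18.4 CPM without a peak in Tbr2-positive cells and 156 ± 18.6 CPM with a peak of 148 bases in 1 of 4 libraries in Tbr2-negative cells. Of 13 microglia genes 11 in Tbr2-positive and 12 in Tbr2-negative cells were expressed, and 4 and 6 of these had no gene-end peak. The list's median was 2.28 CPM in Tbr2-positive and 5.58 CPM in Tbr2-negative cells. From 1 to under 10 CPM, 14.9% and 13.2% of all genes had no gene-end peak in any library. Of 16 vascular and meningeal genes 11 in Tbr2-positive and 12 in Tbr2-negative cells were expressed, and 2 and 4 of these had no gene-end peak. How much of this RNA came from such cells, within or outside the sorted populations, was not tested. Globin genes also have near-identical copies, so their counts may be split between copies.

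Over all expressed genes, 6.86% of 12643 in Tbr2-positive and 6.29% of 12956 in Tbr2-negative cells had no gene-end peak. Among expressed clustered protocadherins these were 19 of 50 (38%) and 22 of 51 (43.1%). Among expressed zinc finger genes they were 26 of 327 (7.95%) and 26 of 328 (7.93%), near the share of all genes. Pcdhb17, an adhesion protein of neurons, had 43.0 ± 8.14 CPM in Tbr2-positive and 50.6 ± 10.8 CPM in Tbr2-negative cells without a peak in any library. Zfp57, which protects imprinted methylation, had 106 ± 10.5 CPM in Tbr2-positive and 139 ± 22.7 CPM in Tbr2-negative cells, also with none. By contrast, in each population 1 of 78 expressed ribosomal protein genes (1.28%) had no gene-end peak. It was Rpl22, with 58.8 ± 12.1 CPM in Tbr2-positive and 91.9 ± 24.4 CPM in Tbr2-negative cells. Among 20 expressed housekeeping genes Ywhaz alone had no gene-end peak, 5% in each population and near the share of all genes. Ywhaz, a phosphoserine-binding adaptor, had 396 ± 69.3 CPM in Tbr2-positive and 370.0 ± 50.1 CPM in Tbr2-negative cells. Psma6, of the proteasome core, had 399 ± 63.4 CPM without a gene-end peak in Tbr2-positive cells, and 405 ± 81.1 CPM with a peak of 155 bases in 1 of 4 Tbr2-negative libraries.

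Acetylated genes without RNA numbered 650 in Tbr2-positive and 615 in Tbr2-negative cells, of which 356 and 362 had no count in any of the 3 RNA libraries. The populations shared 366, 56.3% of the Tbr2-positive and 59.5% of the Tbr2-negative set. A count of 0 over the 3 libraries allows up to 3 counts, or 0.0424 CPM in Tbr2-positive and 0.0468 CPM in Tbr2-negative cells, counting error only. Their peaks were narrow, with a median summed width of 595 and 731 bases, against 1425 and 1491 bases for expressed genes with a peak in every library. They also ranked lower within each library's own list: the best gene-end peak stood at a median percentile of 66.2 and 70.3 by the authors' q-value, against 90.2 and 89.6 for the expressed ones.

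The position of these peaks differed as well. Of the 512 Tbr2-positive and 469 Tbr2-negative genes with known strand, 79.3% and 80.2% had the peak at the 5′ end in every library, and 16.2% and 16.4% at the 3′ end alone. Among expressed genes the 5′ end had one for 99% and 98.8%, and the 3′ end alone for 0.853% and 0.986%. An expressed protein-coding neighbour had an end within 1 kb of an end of the gene for 18.6% and 18.2% of the acetylated genes without RNA. The share was 30.4% and 30.0% among expressed acetylated genes, and 0.896% and 0.789% among genes with neither peak nor RNA. Other protein-coding genes covered at least 50% of the gene's span in 36 of 650 (5.54%) and 35 of 615 (5.69%) genes without RNA, against 2.23% in each population for expressed ones. The library kit does not record strand, and the labels do not say how reads in overlapping genes were assigned.

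The widest of these genes were of a few kinds. Prickle4, a planar polarity gene wholly covered by other genes, had 0.0421, 0.0412 and 0.176 CPM under 3879, 3359 and 3406 bases in Tbr2-positive cells, against 0.169, 0 and 0.231 CPM under 4052, 3920, 3503 and 3694 bases in Tbr2-negative cells. Nme3, a nucleoside diphosphate kinase gene, was at 0 in all 6 libraries under 2972 bases in Tbr2-positive and 2808 bases in Tbr2-negative cells on average. Ilk, an integrin-linked kinase gene that most cells use, had 1 count in all in Tbr2-positive and 2 in Tbr2-negative cells under 2899.7 bases in Tbr2-positive and 2679.5 bases in Tbr2-negative cells on average. Other genes covered only 2.5% of the span of Nme3 and 13.1% of that of Ilk. Their low counts remain uncertain, and the cause was not tested. Mgat4e and Ccl21b were at 0 in every library, and Ccl21b has near-identical neighbouring copies.

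Histone genes made up the largest group among the lists. Replication-dependent histones form nucleosomes in S phase, lie in clusters and mostly lack a poly(A) tail. Of 59, 58 had a gene-end peak in every library in each population, but only 11 in Tbr2-positive and 10 in Tbr2-negative cells were expressed, and 22 in each had a peak and no RNA. Their median was 0.306 CPM under a median width of 1753.3 bases in Tbr2-positive and 0.193 CPM under 1659.2 bases in Tbr2-negative cells. H2ac21 (chr3:96219885-96220354) had 0.0421, 0 and 0 CPM under 3277, 3115 and 3349 bases in Tbr2-positive cells, against 0, 0.0532 and 0 CPM under 3016, 2462, 3136 and 2729 bases in Tbr2-negative cells. H2ac23 was at 0 in all libraries under 2763, 2724 and 2654 bases in Tbr2-positive and 3190, 3005, 3094 and 2834 bases in Tbr2-negative libraries. H2bc21, beside H2ac21 and under the same peaks in part, had the highest level of the family in Tbr2-positive cells, 17.7, 18.4 and 13.5 CPM, against 13.5, 8.35 and 7.63 CPM in Tbr2-negative cells. The near-identical copies of this family make single members uncertain. The roles of poly(A) selection and of shared reads were not tested.

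Immediate-early genes, which respond to stimulation within minutes, were acetylated more often than they were expressed. Of 15, 13 in Tbr2-positive and 14 in Tbr2-negative cells had a peak in every library, while 9 were expressed in each. Over all genes with a peak in every library, 87.0% and 87.9% were expressed. Fos, named after its values were seen, had 1.94, 4.78 and 5.89 CPM under 2532, 2061 and 2763 bases in Tbr2-positive cells, against 0.591, 0.745 and 0.602 CPM under 2058, 1915, 2016 and 1992 bases in Tbr2-negative cells (log2 difference 2.69, edgeR adjusted p = 0.0261). Npas4, an activity-dependent factor, had 0.126 ± 0.152 CPM and no peak in Tbr2-positive cells, and a peak of 154 to 276 bases in every Tbr2-negative library.

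Some genes of other tissues and cell types had gene-end peaks at little or no RNA, and these peaks were not all narrow. Of 25 developmental regulators of other tissues 4 in Tbr2-positive and 5 in Tbr2-negative cells were acetylated without RNA, and 22 were under 0.1 CPM in each. Over all genes, 6.78% and 7.16% of those with no count had a peak in every library. From above 0 to under 0.1 CPM these shares were 28.2% and 27.2%. Hand1, of heart and placenta, had no count under 321, 145 and 188 bases in Tbr2-positive cells, against a mean of 0.0563 CPM under 527, 495, 534 and 609 bases in Tbr2-negative cells. Cd4, a co-receptor of T cells, had 0.126, 0 and 0 CPM under 1656, 1355 and 1396 bases in Tbr2-positive cells, against 0.295, 0.266 and 0 CPM under 1601, 1792, 1887 and 2350 bases in Tbr2-negative cells. In the erythroid list Klf1, the factor that drives globin genes, carried 1146.3 bases in Tbr2-positive and 1009.5 bases in Tbr2-negative libraries on average, at 1.67 ± 0.154 CPM in Tbr2-positive and 0.0422 ± 0.0731 CPM in Tbr2-negative cells (118 and 3 counts, edgeR adjusted p = 0.0166).

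Silent families differed in how often they had a gene-end peak. Of all genes with no count, 6.78% in Tbr2-positive and 7.16% in Tbr2-negative cells had one in every library. Of 1081 olfactory receptor genes, which are used in the nose, 3 had a peak in every Tbr2-positive library and 2 in every Tbr2-negative library, and none reached 1 CPM. Olfr94 had no count under 299, 303 and 460 bases in Tbr2-positive and 917, 905, 795 and 775 bases in Tbr2-negative libraries. Of 352 vomeronasal and taste receptor genes 2 had such peaks in each population, and Tas1r1, a taste receptor, was expressed at 3.24 ± 0.570 CPM in Tbr2-positive and 5.04 ± 2.69 CPM in Tbr2-negative cells. No defensin gene of 70 had a peak in every library. Of 39 Hox genes, which pattern the body behind the forebrain, 2 had such a peak in each population, 2 in Tbr2-positive and 7 in Tbr2-negative cells had one in some libraries, and all 39 were under 0.1 CPM in both. Of 108 keratin and keratin-associated genes, which serve skin and hair, 103 in Tbr2-positive and 97 in Tbr2-negative cells were under 0.1 CPM. A peak lay in every library for 7 of these 108 in Tbr2-positive and 5 in Tbr2-negative cells, and in some libraries for 23 and 15. Of those with a peak in every library, 3 in each population were expressed, and 4 and 1 were under 0.1 CPM.

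Promoter composition went with both readouts. The ratio of observed to expected CG dinucleotides over the 300 bases had a median of 0.788 in both populations for expressed genes with a gene-end peak in every library (9025 and 9225 promoters). It was 0.147 in Tbr2-positive and 0.140 in Tbr2-negative cells for genes with neither peak nor RNA (4089 and 3898 promoters). The letters TATAAA stood within the 50 bases before the start in 1.06% of Tbr2-positive and 1.08% of Tbr2-negative promoters of genes with a peak and RNA, and in 8.17% and 8.34% of those with neither. Expressed genes without a gene-end peak lay between, at 0.462 and 0.390 for the outermost listed start. Acetylated genes without RNA had 0.437 in Tbr2-positive cells, where 80% of the members on chromosomes other than 18 had a promoter. In Tbr2-negative cells only 78.3% had one, under the 80% set as the least for this check, so it is void there.

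Genes with a peak in some libraries had narrow peaks and mostly low RNA. In Tbr2-positive cells genes with a peak in 1 and 2 of 3 libraries were expressed in 28.9% and 34.0% of cases. Over the libraries that had the peak, their median width was 185 and 249 bases, against 1346.3 bases for genes with a peak in all 3. In Tbr2-negative cells genes with a peak in 1, 2 and 3 of 4 libraries were expressed in 32.2%, 37.2% and 40.0% of cases, with median widths of 182, 229.5 and 309.7 bases over the libraries that had the peak, against 1426.8 bases for genes with a peak in all 4. The libraries did not contribute alike. Peaks seen in 1 library alone lay in replicate 1 for 483, in replicate 2 for 239 and in replicate 3 for 285 genes of Tbr2-positive cells, the same order as their peak numbers (82164, 61487 and 63496). In Tbr2-negative cells the 4 replicates had 163, 320, 208 and 135 such genes, again in the order of their peak numbers (60637, 78773, 69280 and 56403). Hdac4, Camk2b and Rbfox3 were well expressed members of this class in Tbr2-positive cells, with 75.5 ± 1.43, 32.2 ± 8.44 and 101 ± 20.8 CPM.

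The classes of the populations mostly coincided. A peak in every library of both was found for 12596 genes and a peak in none of either for 5794. Peaks in every Tbr2-positive and no Tbr2-negative library were found for 22 genes, and the reverse for 89. The first count asks for a peak in 3 libraries and none in 4, the second for a peak in 4 and none in 3. These counts are therefore not directly comparable. Of 20078 genes of all types tested for RNA by edgeR, 9.96% were higher and 11.5% lower in Tbr2-positive cells. Among the 22, 14 could be tested, 2 were higher and none was lower (14.3% higher; median log2 difference 0.16). Among the 89, 58 could be tested, 19 were lower (32.8%) and 4 higher, with a median log2 difference of -1.44, which is the same with genes at 0 in a group set to the floor of 3 counts per group. Genes acetylated in both were higher in 13.7% and lower in 13.5% of 11973 tested. The count of 19 was 33 without Tbr2-positive H3K9ac replicate 1 and 32 without replicate 3, since fewer libraries then had to lack the peak.

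Neurod4, a proneural factor of intermediate progenitors, had 138, 93.6 and 129.6 CPM under 856, 685 and 490 bases in Tbr2-positive cells, against 5.40, 4.42 and 1.48 CPM and no peak in Tbr2-negative cells. Its RNA was higher by 4.99 ± 0.42 on the log2 scale (SE, edgeR adjusted p = 1.00e-05). Tfap2d, an AP-2 factor, had 13.4, 20.1 and 28.5 CPM under 1682, 481 and 1309 bases in Tbr2-positive cells, against 6.92, 9.58 and 7.63 CPM and no peak in Tbr2-negative cells (log2 difference 1.36, adjusted p = 0.00872). These were the 2 that passed among genes acetylated in Tbr2-positive cells alone.

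On the other side, Nin, a centrosome protein that anchors microtubules (chr12:70011435-70113811), had 15.6, 27.3 and 16.2 CPM and no gene-end peak in Tbr2-positive cells, against 145, 135 and 180.0 CPM under 4409, 749, 4001 and 4055 bases in Tbr2-negative cells. Its RNA fell by 2.96 on the log2 scale (edgeR adjusted p = 8.69e-06). The anion transporter gene Slc26a7 had 4.21, 6.80 and 1.41 CPM without a peak in Tbr2-positive cells, against 34.5, 28.7 and 39.0 CPM under 253, 237, 483 and 1370 bases in Tbr2-negative cells. The growth factor gene Fgf3 had 0 counts in all in Tbr2-positive cells, against 96 in Tbr2-negative cells (edgeR adjusted p = 0.00151). The signalling gene Wnt4 had 27 counts in Tbr2-positive cells, against 193 in Tbr2-negative cells (adjusted p = 0.0104).

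Direction and class did not always go together. Pxylp1, which acts in glycosaminoglycan synthesis, had 156, 89.5 and 112 CPM without a gene-end peak in Tbr2-positive cells, against 45.4, 39.1 and 35.3 CPM under 214, 200, 347 and 154 bases in Tbr2-negative cells. Plch2, a phospholipase C gene, had 21.6 ± 5.41 CPM in Tbr2-positive and 8.03 ± 1.75 CPM in Tbr2-negative cells, with peaks of 344 to 594 bases in Tbr2-negative libraries alone. Both were higher in the population without the peak (log2 differences 1.58 and 1.43, edgeR adjusted p = 0.000274 and 0.00193). Ihh, a hedgehog ligand, and Bhlhe23, a bHLH factor, did likewise at a mean under 1 CPM, with 54 and 48 counts in Tbr2-positive cells, against 0 and 2 in Tbr2-negative cells.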

How the data were processed

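Vehicle libraries of the Tbr2-positive (3 RNA, 3 H3K9ac) and Tbr2-negative (3 RNA, 4 H3K9ac) groups were used. The authors deposited raw read counts per Ensembl gene; no label names the aligner or counter, which are not given here. The deposited peak lists give each peak's −log10 q-value, pileup signal, fold ratio and position. Per the file headers, peaks were called in each library with MACS 2.1.0.20140616 at a q of 0.1 against 1 input per group, on mm10. The pileup signal and the fold ratio deposited by the authors were not used. Per the submitters' processing notes, SAMtools was also used.

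Genes were matched to RefSeq (GRCm38.p6) by symbol (20759) or older symbol (393); 745 RefSeq genes had no match. CPM are counts divided by the library total times its TMM factor, which was estimated over the 10 RNA libraries, TSA included. The full width of every peak that touches a window of 1 kb around either gene end was added once. RNA was compared between populations with edgeR 4.0.16 (quasi-likelihood, R 4.3.3) on all 20078 genes that passed its low-count filter, in 1 fit of the 10 RNA libraries, TSA included, with Benjamini-Hochberg adjustment at 0.05. H3K9ac libraries were compared by exact permutation tests (SciPy 1.17.1). Scripts were tested on simulated data. DESeq2 1.42.0 and other windows, thresholds and libraries were alternatives. Counts over the 3 libraries of a group total 69991043 in Tbr2-positive and 60849757 in Tbr2-negative cells, and floors cover counting error only.

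The members and the gene lists were chosen with earlier results of these data known. Genes are named by rule: the 10 highest by CPM without a peak, the 10 widest without RNA, the 10 widest and the 5 highest by CPM with a peak in every library, the 6 largest RNA differences in each direction among genes with peaks in 1 population, 13 marker genes, and up to 4 members of each list per class by CPM. Some genes that this rule names are not reported here. Same-numbered RNA libraries did not deviate together enough to count as pairs. The TSA chromatin libraries were not used here.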

Additional observations from a re-analysis of the deposited data

Results flagged for a closer look

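Of 64 genes and library measures examined, 4 had 1 of the 4 Tbr2-negative H3K9ac libraries far from the other 3 by Dixon's criterion, which chance meets in about 1 of 20 groups. The summed gene-end peak width of Mgat4e was 3115 bases in replicate 4, the highest. That of Gad2, which makes GABA, was 7121 bases in replicate 3, also the highest. The widths of Nin and of Sox2 in replicate 2 were the lowest, at 749 and 6567 bases. Neither was 0, so neither gene's class turns on that library.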

How the results depend on the processing

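Depth limits the silent classes: a gene at 0 may have up to 3 counts. Listed starts exist for 17002 genes, so the use of the 5′ end alone covers fewer genes by construction, and CPM per kb of coding length was not run because no coding length was at hand. A wider window or added starts can only add gene-end peaks. A narrower window, a stricter q, fewer peaks or a minimum overlap can only remove them. The direction of change in the share, in expressed genes without a peak and in acetylated genes without RNA then follows by construction. The cause of the remaining changes was not tested. The share of expressed genes with a peak in every library was 86.03% in Tbr2-positive and 85.77% in Tbr2-negative cells with a window of 500 bases, and 91.78% and 91.62% with 2 kb. It was 86.39% and 86.87% for peaks with a −log10 q of at least 5, 88.16% and 87.89% at the 5′ end alone, 87.23% and 86.82% for genes from 0.5 CPM, and 90.71% in both from 2 CPM. In Tbr2-positive cells it was 88.39% with equal peak numbers and 88.53% with 100 bases covered. With listed starts added, chosen after seeing the data, it was 94.08% and 93.62%. The median CPM of acetylated genes was 31.61 in Tbr2-positive and 30.49 in Tbr2-negative cells (500 bases), 27.83 and 27.56 (2 kb), 33.87 and 31.39 (stricter q), 30.92 and 29.3 (equal numbers), 33.1 and 31.63 (5′ end), and 29.15 and 28.65 (starts), and in Tbr2-negative cells 30.39 relative to the plain library total. The rank correlation was 0.4643 and 0.4355 (500 bases), 0.4223 and 0.4092 (stricter q), and 0.5038 and 0.4661 (starts). It was 0.4687 in Tbr2-positive cells with equal numbers and 0.4603 in Tbr2-negative cells at the 5′ end.

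Expressed genes without a peak numbered 574 in Tbr2-positive and 531 in Tbr2-negative cells with 2 kb, and 442 and 433 with starts. The main setting gave 867 and 815. The count rose to 1207 and 1131 with 500 bases, 1273 and 1214 with the stricter q, and 956 and 892 with equal peak numbers. Acetylated genes without RNA numbered 406 and 376 at the 5′ end, and 356 and 362 when no count was allowed. With the stricter q they numbered 391 and 427, with 500 bases 514 and 508, and with 2 kb 829 and 761. The main setting gave 650 and 615. Genes with peaks in Tbr2-positive cells alone and higher RNA numbered 4 (500 bases), 1 (2 kb), 7 (stricter q), 4 (100 bases covered) and 1 (starts), against 2 as reported. Those with peaks in Tbr2-negative cells alone and lower RNA numbered 33 (500 bases), 56 (stricter q) and 29 (equal numbers), against 19. The difference between the populations in the share per library changed sign to 0.149 with starts.

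Leaving out 1 library at a time gave shares of 88.9 to 89.76% in Tbr2-positive and 88.7 to 89.37% in Tbr2-negative cells, medians of 28.63 to 29.99 and 28.34 to 29.28 CPM, and correlations of 0.4771 to 0.5011 and 0.446 to 0.4563. Expressed genes without a peak then numbered 860 to 1000 and 815 to 907, and acetylated genes without RNA 653 to 758 and 641 to 684. Genes with peaks in Tbr2-positive cells alone and higher RNA numbered 2 to 3, those with peaks in Tbr2-negative cells alone and lower RNA 16 to 33, and the difference per library ranged from -0.3273 to 0.0599, positive without Tbr2-positive replicate 2 (0.05237) and without Tbr2-negative replicate 2 (0.0599).

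Same-numbered RNA libraries correlated at 0.099, 0.081 and 0.099 in their deviations from the group means, and each correlated best with its own number. With the replicate block 2 genes with peaks in Tbr2-positive cells alone were higher, against 2 without it, and 21 with peaks in Tbr2-negative cells alone were lower, against 19 without it.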
